A study of Mus musculus with 2 samples.

Results

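Calcrl, Ramp1, Ramp2, Ramp3 and Adm, 5 of the 32524 genes in the tables, were followed across the cell types of arthritic mouse synovium. They were found by gene symbol, as the genes of the calcitonin gene-related peptide (CGRP) and adrenomedullin receptors together with the gene of the adrenomedullin ligand. They were chosen by their measured levels across cell types and in both libraries, which had been seen, so these levels and ratios are given as descriptions without a test. The cells were sorted as CD45+CD11b+, a surface pattern of myeloid cells, from the synovium of the hind paws of wild-type C57BL/6 mice aged 7 to 10 weeks at the start. The mice had received β-glucan, a fungal cell wall polysaccharide used to induce trained immunity, or PBS as the control, by intraperitoneal injection 7 days before arthritis was induced, and the cells were collected on day 17 of arthritis. Both groups were arthritic and no library of unchallenged synovium was analysed here. The series design and the study's methods name K/BxN serum transfer as the arthritis model, whereas the treatment text of the sample labels describes an antibody cocktail followed by lipopolysaccharide. Cells of 4 mice per group went into 1 library per group and nothing assigns a cell to a mouse. There were therefore no replicates, treatment and library cannot be told apart, and every interval below is a 95% interval for counting error only.

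The receptor system works by pairing. The product of Calcrl, the calcitonin receptor-like receptor, reaches the cell surface and gains its ligand preference through a receptor activity-modifying protein (RAMP). With RAMP1 it forms the CGRP receptor, and with RAMP2 or RAMP3 it forms adrenomedullin receptors. The complex couples mainly to Gs and raises cyclic AMP. CGRP is released by sensory nerve fibres, which are abundant in the synovium, while adrenomedullin is made by many cell types including vascular and stromal cells, and its receptor with RAMP2 is best known from blood and lymphatic endothelium.

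The β-glucan library held 7196 barcodes with 81611849 unique molecular identifiers (UMIs, each standing for 1 captured transcript) and the PBS library held 5760 barcodes with 73874602 UMIs. Barcodes under 500 genes or over 10% mitochondrial UMIs were set aside, which left 5696 cells of the β-glucan library and 4553 of the PBS library, with medians of 12457.5 and 14475 UMIs. Among the kept cells 2 barcodes occurred in both libraries. Clustering gave 21 clusters, and 20 of them held at least 50 cells. Names ending in "-like" rest on marker genes, and clusters whose leading genes went against a name stayed unnamed. Macrophage-like clusters, those rich in major histocompatibility complex (MHC) class II genes, the dendritic-cell-type-1-like cluster and unnamed cluster 10 form what is called the myeloid compartment here. It held 4615 β-glucan and 3679 PBS cells. All 8 macrophage markers, which also served to name its clusters, had UMIs in it in both libraries. They also had UMIs in the T-cell-like, mast-cell-like, stromal-like and vascular clusters, so their detection does not set the compartment apart. The sort also contained B-cell-like, T-cell-like, mast-cell-like, stromal-like and vascular cells, beside the myeloid cells its label names. Levels are a gene's UMIs divided by the summed UMIs of the cluster, on the usual CPM scale, and they are compared between clusters and libraries. Where 2 genes are set side by side, as in the ratio of Ramp1 to Calcrl UMIs, the comparison is between clusters. Such values are not read as relative amounts of the 2 transcripts.

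Calcrl, the receptor subunit shared by all these receptors, lies on the minus strand of chr2:84160957-84255755 (GRCm39; ENSMUSG00000059588), and 5.16% of its 94.8 kb is exonic. Ramp1 lies on the plus strand of chr1:91107540-91152918 (ENSMUSG00000034353), with 7.38% of 45.4 kb exonic. Over all kept cells Calcrl had 10315 UMIs and Ramp1 10361. Calcrl, Ramp3 and Adm overlap annotated genes on the opposite strand, and whether the counting used strand is not given in the sources used here. The RefSeq sequences of the 250 bases before their annotated starts are shown because the libraries differed in Calcrl in all larger compartment clusters and Ramp1 did not share that pattern. They are read from GRCm38.p6, at chr2:84425267-84425516 on the minus strand for Calcrl and at chr1:91179572-91179821 on the plus strand for Ramp1. Capitals mark the letters AGGAAG, which are found within many ETS factor sites, or GGGCGG, the GC box, on either strand.
Calcrl: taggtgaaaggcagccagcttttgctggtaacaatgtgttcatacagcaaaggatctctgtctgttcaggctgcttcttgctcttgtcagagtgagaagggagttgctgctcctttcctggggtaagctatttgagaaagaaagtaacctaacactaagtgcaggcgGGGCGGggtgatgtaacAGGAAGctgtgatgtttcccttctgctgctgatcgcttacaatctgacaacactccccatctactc
Ramp1: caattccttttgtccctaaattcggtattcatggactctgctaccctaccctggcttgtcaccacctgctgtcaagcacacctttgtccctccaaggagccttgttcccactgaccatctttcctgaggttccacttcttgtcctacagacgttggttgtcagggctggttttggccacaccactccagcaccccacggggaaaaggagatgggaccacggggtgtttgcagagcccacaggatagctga
The Calcrl stretch held AGGAAG 1 time, 60 bases before the start, and GGGCGG 1 time. The Ramp1 stretch held neither. It also held neither TGACG, the cyclic AMP response element core, nor ACGTG, the core of hypoxia response elements, and the Calcrl stretch lacked these as well. Of 32851 promoters of the same kind, 29.5% held AGGAAG, 32.7% GGGCGG, 17.8% TGACG and 16.6% ACGTG, so these letters are common.

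Calcrl was detected in every cluster of at least 50 cells, from 35.2 CPM in the Ccl17 and Mgl2 cluster (cluster 6) to 224 CPM (197 to 254) in cluster 18, a mix of endothelial and mural vascular cells. After cluster 18 came the Olr1 and Ctsd macrophage-like cluster (cluster 7) at 130 CPM, unnamed cluster 10 at 126 CPM and the Vsig4 and S100b macrophage-like cluster (cluster 1) at 109 CPM. Clusters 7 and 10 could not be ordered within counting error. Cluster 18 had 268 CPM (233 to 306) with β-glucan, above both. With PBS it had 117 CPM (82.4 to 161), and the intervals of clusters 7 and 10 overlapped its own. At a clustering resolution of 0.5, where its cells joined the stromal-like ones, the level over both libraries was 94.2 CPM. At resolution 1 it split into a mural-like cluster with 51 of its 85 cells and an endothelial-like one with 33. The value of 72.2 CPM at that resolution is of the part left after the endothelial cells had split off. Cluster 10 was led by Plac8, Chil3 and Ngp, yet at resolution 1 only 42 of its 376 cells fell in a cluster led by these genes, with 66.5 CPM of Calcrl, and 334 joined a cluster led by Plxna4 and Taco1 with 140 CPM. Cluster 10 was shallow, with a median of 4758.5 UMIs, and genes of at least 100 kb took 29.0% of its UMIs with β-glucan and 26.9% with PBS. Their part in its Calcrl level was not tested. The mast-cell-like cluster 12 followed at 92.6 CPM, and from there to the Spp1 and Cav1 cluster (cluster 0) at 68.2 CPM no neighbours in the order differed beyond counting error. The lowest macrophage-like level was 39.8 CPM in the Aqp1 and Lyve1 cluster (cluster 5).

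**Figure D1:**
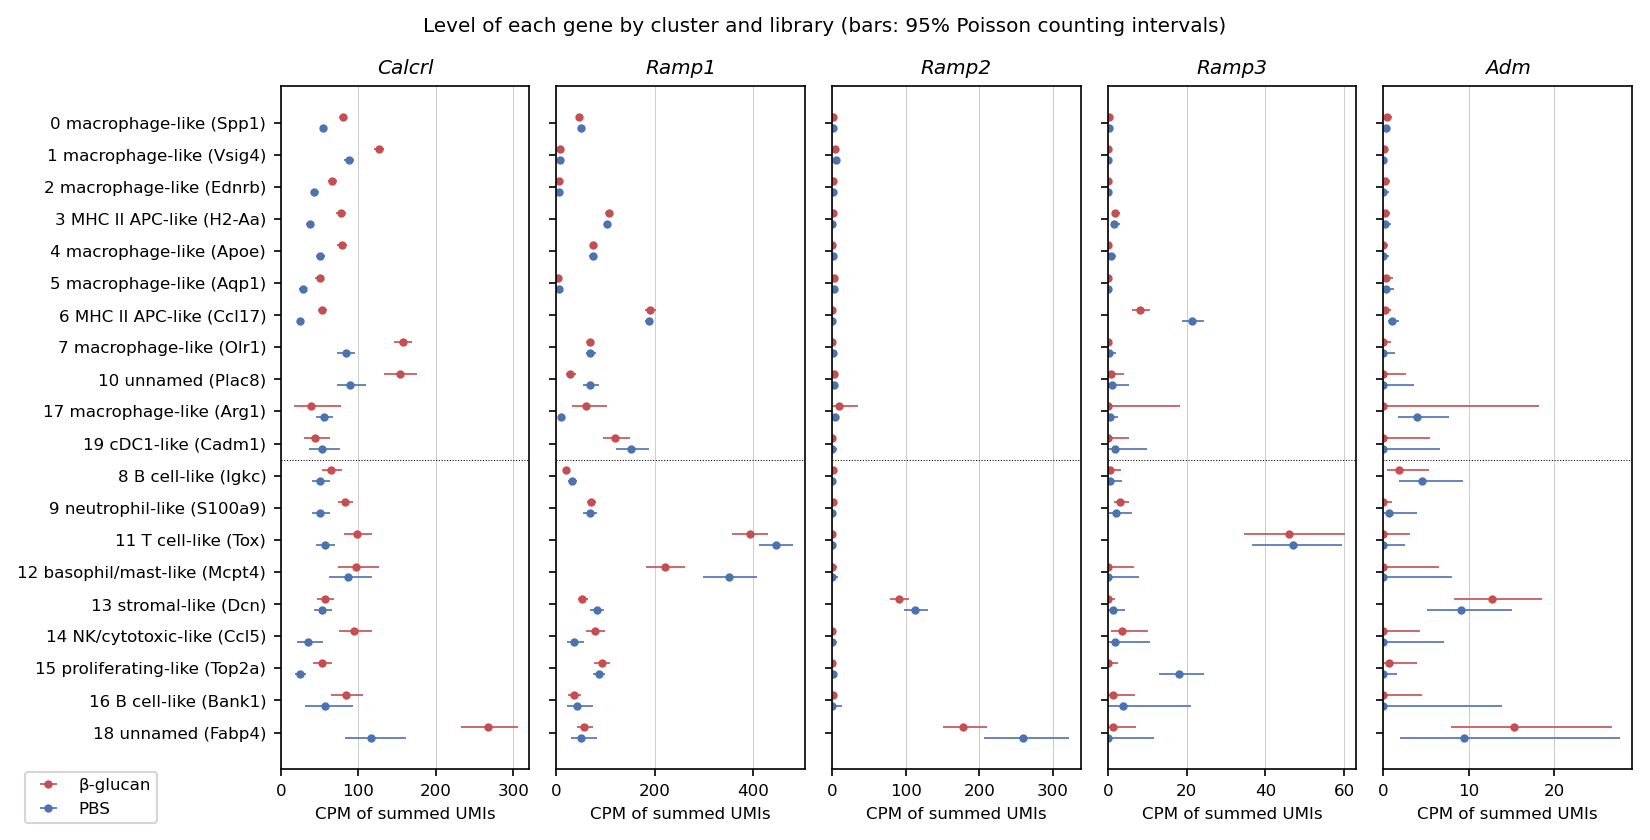
Level of each gene in CPM, on a linear axis of its own, in each cluster of at least 50 cells, with 1 point per library, bars for the 95% counting interval and a dotted line under the compartment clusters. Calcrl was detected in all 20 clusters, whereas Ramp2 stood high in clusters 18 and 13 and Ramp3 in clusters 11 and 6.

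Because free RNA in a droplet gives UMIs in cells that do not express a gene, the share of cells with a Calcrl UMI was read against B-cell-like cells after thinning each cell to 3000 UMIs. In B-cell-like cells it was 16.8% (13.7 to 20.2; 25.8% before thinning, median 5699 UMIs) and in the compartment 16.6% (42.7% before thinning, median 14044.5 UMIs). The compartment as a whole was thus at the level of the reference. Shares whose intervals lay above the reference interval were found in cluster 1, with 25.2% (22.7 to 27.8), cluster 7, with 26.2% (22.3 to 30.4), cluster 10, with 25.5% (20.5 to 31.1), and cluster 18, with 31.6% (21.4 to 43.3). The MHC class II-rich cells were below the reference, at 11.1%, cluster 6 stood at 8.84% (6.87 to 11.1) and stromal-like cells at 10.1% (6.07 to 15.4), so the B-cell-like share was not the lowest level and was not shown to be free RNA alone. For the remaining clusters these shares do not settle whether Calcrl was expressed. Barcodes that failed the filter on cells held Calcrl at 97.7 CPM.

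Calcrl was higher in the β-glucan library across the compartment. Over the compartment β-glucan gave 5655 Calcrl UMIs and PBS gave 3041. That is 86.4 against 50.2 CPM, a log2 ratio of 0.79 (0.72 to 0.85). Among 9811 genes averaging 5 CPM or more in the compartment, 0.866% were higher with β-glucan by a log2 ratio of 0.5 or more, and Calcrl held place 13 of all by its log2 ratio. The macrophage-like cells had 90.7 against 57.8 CPM, a log2 ratio of 0.65 (0.58 to 0.72). The MHC class II-rich cells had 66.3 against 29.2 CPM, a log2 ratio of 1.18 (1.02 to 1.34).

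All 9 compartment clusters with at least 50 cells per library had a Calcrl log2 ratio of at least 0.5. Of 8668 genes measured in all 9, this held for 3, or 0.0346%: Calcrl, Fam214a and Mitf, the last encoding a transcription factor of the microphthalmia family. The ratio was 0.55 in cluster 0, 0.52 in cluster 1 and 0.61 in the Ednrb and Cd163 cluster (cluster 2), where 1.7%, 1.71% and 2.51% of measured genes were past the same fold upwards. It was 0.63 in the Apoe and Gpnmb cluster (cluster 4), 0.83 in cluster 5 and 0.92 in cluster 7, against backgrounds of 4.33%, 2.58% and 7.24%. The highest values belonged to the MHC class II-rich clusters, with 1.05 in cluster 3 (background 3.64%) and 1.15 in cluster 6 (background 4.25%). In cluster 10 it was 0.78, where 13.3% of genes passed. In cluster 1, where the Calcrl share stood above the reference, the levels were 126 CPM with β-glucan and 87.8 CPM with PBS. The corresponding levels were 158 and 83.6 CPM in cluster 7, and 154 and 89.7 CPM in cluster 10. The 2 compartment clusters with fewer cells went the other way, at -0.50 (-1.74 to 0.53) in cluster 17 and -0.27 (-1.05 to 0.51) in the dendritic-cell-type-1-like cluster 19, both with intervals across 0.

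**Figure D2:**
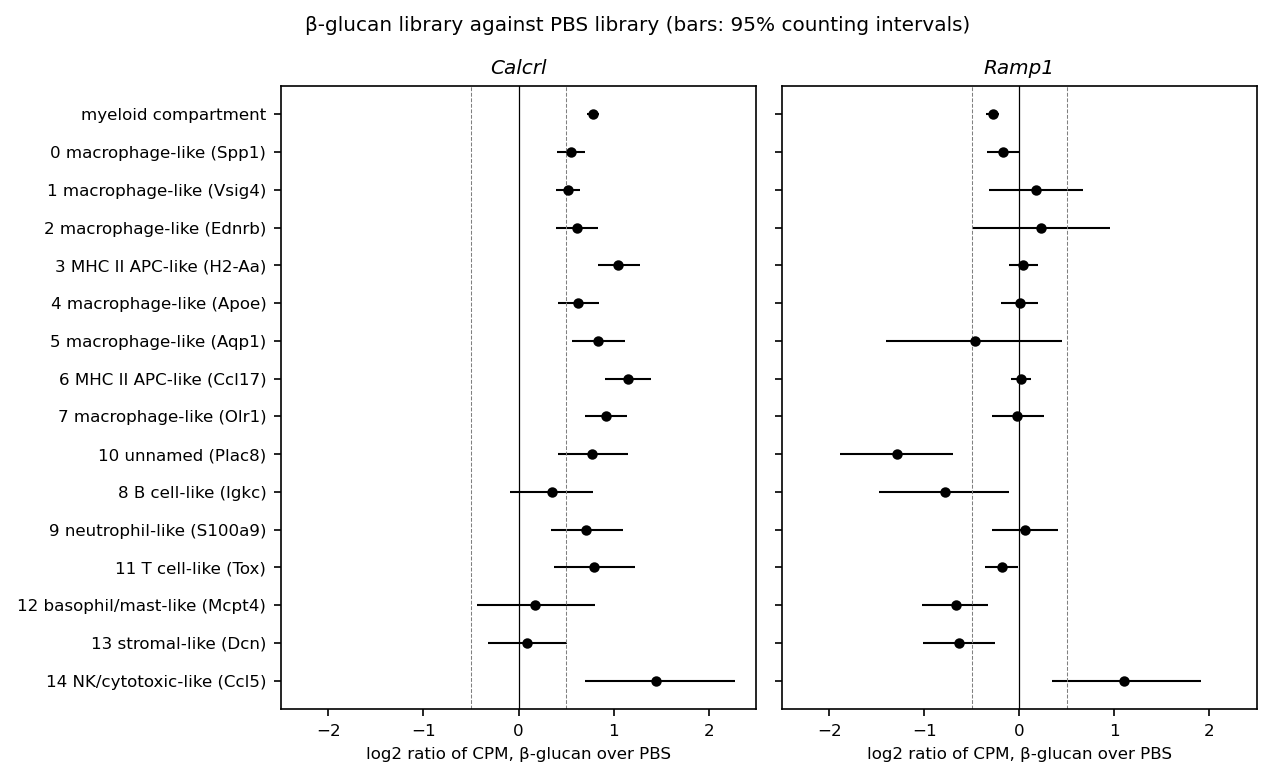
Log2 ratio of β-glucan over PBS for Calcrl and Ramp1 in the compartment as a whole and in each cluster with at least 50 cells per library, with bars for 95% counting intervals and dashed lines at 0.5 on either side of 0. The Calcrl points are above 0 in all 15 clusters and Ramp1 points lie on both sides of 0.

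Calcrl was also higher with β-glucan outside the compartment. The log2 ratio was 0.71 in neutrophil-like cells (cluster 9; 24.8% of genes past the fold upwards), 0.80 in T-cell-like cells (cluster 11; 17.1%) and 1.45 in cytotoxic-lymphocyte-like cells (cluster 14; 23.4%). These 3 intervals lay above 0. Cluster 9 had a median of 9564.5 UMIs with β-glucan and 4544 with PBS. At resolution 1 it split into a shallow cluster of 114 β-glucan and 127 PBS cells and a deeper one of 136 and 44. The part of this mix in its Calcrl ratio was not tested. In the larger B-cell-like cluster 8 the Calcrl log2 ratio was 0.35 (-0.09 to 0.79), where 12.2% of genes passed. In cluster 12 it was 0.17 (-0.44 to 0.80), where 24.0% passed. In the stromal-like cluster 13 Calcrl stood at 56.9 against 53.5 CPM, for a log2 ratio of 0.09 (-0.32 to 0.51), with 10.1% of genes past the fold. Calcrl was thus higher in the β-glucan library in 15 of 15 clusters with at least 50 cells per library, with 12 intervals above 0. The share of all genes with this pattern over the 15 clusters was not taken. Barcodes left out by the filter had 128 CPM with β-glucan and 66.0 CPM with PBS, so the difference was present there too. The part of free RNA in the library difference was not tested.

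Calcrl spans 94.8 kb, just under the 100 kb set here for long genes. Long genes took a larger share of UMIs in the β-glucan library. Genes of at least 100 kb took 19.5% of compartment UMIs with β-glucan and 17.7% with PBS. The median log2 ratio was 0.08 over the 2327 genes spanning 50 to 150 kb, the range that holds Calcrl, and 1.03% of these were past the fold upwards. In 3108 cells per library matched on this share, cluster by cluster, the Calcrl log2 ratio was 0.60. This match also equalizes cluster sizes. The parts of long genes and of cluster sizes in the Calcrl difference cannot be told apart here and were not tested.

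Ramp1, whose product turns the receptor towards CGRP, was spread unevenly among the cells. It was highest in the T-cell-like cluster 11, at 422 CPM (398 to 448), followed by the mast-cell-like cluster 12 at 279 CPM, cluster 6 at 189 CPM, dendritic-cell-type-1-like cells at 134 CPM and the MHC class II-rich cluster 3 at 105 CPM. Over both libraries summed, each of these differed from the next beyond counting error. At the other end, macrophage-like clusters 1, 2 and 5 had 7.46, 5.32 and 3.56 CPM. The remaining macrophage-like clusters with at least 50 cells per library, 0, 4 and 7, had 47.5, 73.7 and 68.5 CPM, and the last 2 of these overlapped in their intervals with the neutrophil-like and stromal-like levels of 69.4 and 65.4 CPM.

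After thinning, 55.8% of T-cell-like cells, 49.6% of mast- and basophil-like cells and 32.0% of MHC class II-rich cells held a Ramp1 UMI. The share in neutrophil-like cells, taken as a first reference, was 13% (9.87 to 16.8; 33.5% before thinning, median 5627 UMIs). Macrophage-like cells were below it, at 8.33% (24.4% before thinning, median 14019.5 UMIs). In clusters 1, 2 and 5 the share was 2.0%, 1.11% and 0.889%. The lowest share in a class of at least 100 cells was 3.39% (2.02 to 5.30), in B-cell-like cells. Clusters 0, 4 and 7, of like depth to clusters 1, 2 and 5, had 13% (11.4 to 14.8), 18.4% (15.9 to 21.2) and 19.4% (15.9 to 23.3), all above the B-cell-like share. The neutrophil-like share was therefore not a background level, and the macrophage-like class was a mix of clusters with and nearly without Ramp1. Cluster 6, at 43.6% (40.0 to 47.3), was above all of these macrophage-like clusters.

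The ratio of Ramp1 to Calcrl UMIs within a cluster ran from 0.0684 in cluster 1 to 5.64 in cluster 11. Cluster 1 thus combined a high Calcrl level with very few Ramp1 UMIs, and cluster 6 showed the opposite pattern, with 5.36 Ramp1 UMIs per Calcrl UMI. Within both libraries the same contrast held, since the ratio was 0.0623 and 0.0794 in cluster 1, and 3.55 and 7.77 in cluster 6, with β-glucan and PBS respectively.

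Ramp1 UMIs of the compartment numbered 3653 for β-glucan and 4114 for PBS. At 55.8 and 67.8 CPM the log2 ratio came to -0.28 (-0.35 to -0.22), short of the fold that 1.31% of genes passed downwards. The direction turned in the cells matched on the share of long genes, a match that also equalizes cluster sizes, where the log2 ratio was 0.088. Within 7 of the 9 larger compartment clusters the interval of the Ramp1 ratio crossed 0, the exceptions being cluster 0 at -0.17 and cluster 10. Cluster 6, which was larger in the PBS library (437 cells) than in the β-glucan library (287 cells), had 190 CPM with β-glucan and 188 CPM with PBS. In clusters 3, 4 and 7 the log2 ratios were 0.04, 0.01 and -0.02, with intervals across 0. Without cluster 6 and the Arg1 cluster (cluster 17), which lay mostly in the PBS library with 78 of 94 cells, the compartment log2 ratio was -0.084. With equal weight per cluster it was -0.16. The part of cell numbers in the compartment ratio was not tested.

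Ramp1 ratios past the fold were found in 5 of 15 clusters, 4 of them downwards and 1 upwards. Many genes passed the fold in these clusters, in both directions. In the 4 clusters where Ramp1 was lower, 8.91% to 19.2% of genes passed downwards and 10.1% to 24.0% upwards. In cluster 14 it was 16.0% downwards and 23.4% upwards. In cluster 10 β-glucan and PBS cells had 28.4 and 69.0 CPM, giving a log2 ratio of -1.28 (-1.89 to -0.70), against 13.1% of genes past the fold downwards. The mast-cell-like cluster 12 had 220 and 350 CPM, a log2 ratio of -0.67 (-1.02 to -0.32), against 19.2%. In that cluster the summed level of 8 macrophage markers was 2944 CPM with β-glucan and 949 CPM with PBS, and that of 10 mast cell markers 57675 and 77546 CPM, so the β-glucan cells carried more RNA of other cell types. The part of this in the Ramp1 ratio was not tested. In cluster 13 the levels were 52.6 and 81.4 CPM, a log2 ratio of -0.63, against 13.5%. In cluster 8 they were 18.8 and 32.3 CPM, a log2 ratio of -0.78, against 8.91%. Cluster 14 went the other way, at 77.9 and 36.4 CPM (67 and 19 UMIs), for a log2 ratio of 1.10 (0.34 to 1.92), against 23.4% of genes past the fold upwards.

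**Figure D3:**
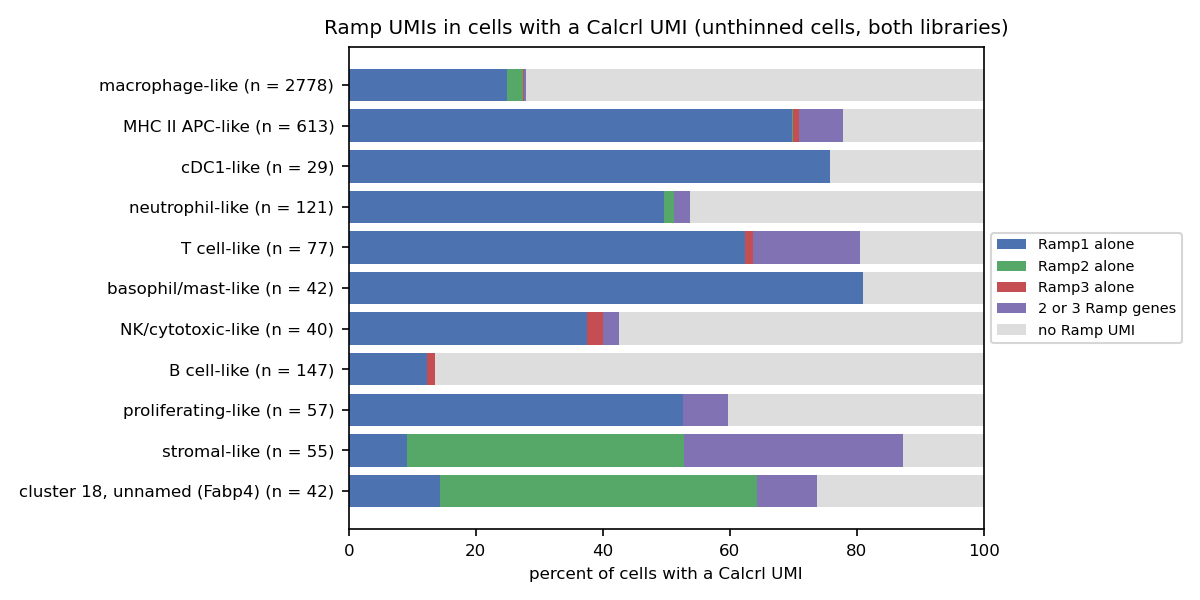
Percentage of cells with a Calcrl UMI that also held UMIs of Ramp1 alone, Ramp2 alone, Ramp3 alone, 2 or more of them, or none, by cell class and in cluster 18, before thinning. Ramp1 alone is the largest named part in MHC class II-rich, T-cell-like and mast-cell-like cells, and Ramp2 in stromal-like cells and cluster 18.

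At the level of single cells, 4126 kept cells held a Calcrl UMI. Of these 33.4% also held Ramp1 alone, 2.88% Ramp2 alone, 0.364% Ramp3 alone and 2.38% at least 2 of the 3. The partner seen most often differed between classes. Ramp1 alone was found in 69.8% of the 613 MHC class II-rich Calcrl cells, 81.0% of the 42 mast- and basophil-like ones and 24.9% of the 2778 macrophage-like ones. Of the 753 Calcrl cells in cluster 1, 9.69% held Ramp1 alone and 5.44% Ramp2 alone. In stromal-like Calcrl cells (55), 43.6% held Ramp2 alone and 34.5% at least 2 partners.

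These shares grow with depth, so co-detection was also counted after thinning. In the compartment Ramp1 was found in 10.7% of 1323 Calcrl cells and in 13.8% of the other cells. The class values were 7.35% and 8.54% in macrophage-like cells, 29.4% and 32.3% in MHC class II-rich cells, and 59.5% and 55.1% in T-cell-like cells. In the compartment as a whole Ramp1 was less frequent in Calcrl cells beyond counting error, and within each of the 3 classes the intervals of both shares overlapped. In cluster 18 Ramp2 was found in 11 of 24 Calcrl cells (45.8%) and in 11 of 52 others (21.2%), with intervals that overlapped.

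Ramp2, the partner that gives the main vascular adrenomedullin receptor, was high in vascular and stromal-like cells. It lies on the plus strand of chr11:101136358-101150419 (GRCm39; ENSMUSG00000001240) and overlaps Vps25 on the same strand, so reads of both could be split in counting and its values are uncertain to that extent. Vps25 itself lay between 0.908 and 8.61 CPM in all clusters. Of 797 Ramp2 UMIs, 222 came from cluster 18, at 202 CPM (176 to 230), and 373 from the stromal-like cluster 13, at 101 CPM (90.8 to 112). Next came cluster 1 with 4.51 CPM (3.63 to 5.54) and 90 UMIs in 79 of 1154 cells. Cluster 17 with 4.41 CPM and cluster 5 with 2.59 CPM (1.77 to 3.65) followed. Neighbours in the order of these 3 did not differ beyond counting error. No Ramp2 UMI was seen in T-cell-like, mast-cell-like, cytotoxic-lymphocyte-like or dendritic-cell-type-1-like cells.

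In cluster 1 the thinned share of cells with a Ramp2 UMI was 2.09% (1.34 to 3.09). The B-cell-like reference was 0 of 531 cells, which allows a share of up to 0.692%. Before thinning, the shares were 6.85% and 0.351%. The Ramp2 share in cluster 1 was therefore above the B-cell-like reference, and the Ramp2 level was far under the stromal-like one. Ramp2 in the barcodes left out by the filter stood at 3.15 CPM (1.92 to 4.87). Cluster 1 was at 4.51 CPM (3.63 to 5.54), and the part of free RNA in it was not tested. Between libraries Ramp2 was level in cluster 1, at 4.43 CPM with β-glucan and 4.61 CPM with PBS. Over the compartment there were 102 and 93 Ramp2 UMIs, a log2 ratio of 0.02 (-0.40 to 0.44). In cluster 13 Ramp2 stood at 91.0 against 113 CPM, for a log2 ratio of -0.31 (-0.61 to -0.01).

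Cluster 18 was divided by whether a cell held more UMIs of 8 endothelial or of 5 mural markers, a division made after its values were seen. In the 36 more endothelial cells Calcrl stood at 411 CPM (357 to 472), with a UMI in 83.3% of cells, and Ramp2 at 409 CPM, with a UMI in 72.2%. In the 41 more mural cells Calcrl stood at 69.6 CPM, Ramp2 at 27.8 CPM and Ramp1 at 85.3 CPM, against 22.2 CPM of Ramp1 in the endothelial cells. The Calcrl and Ramp2 levels of cluster 18 were thus carried by its endothelial cells. Calcrl in these was 484 CPM in 23 β-glucan cells and 241 CPM in 13 PBS cells, and Ramp2 375 and 490 CPM. In the whole of cluster 18 Ramp2 was 178 CPM with β-glucan and 259 CPM with PBS, while the summed endothelial markers were 3278 and 7378 CPM and the mural markers 4019 and 1116 CPM. The mix of vascular cells therefore differed between libraries, and its part in these ratios was not tested.

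**Figure D4:**
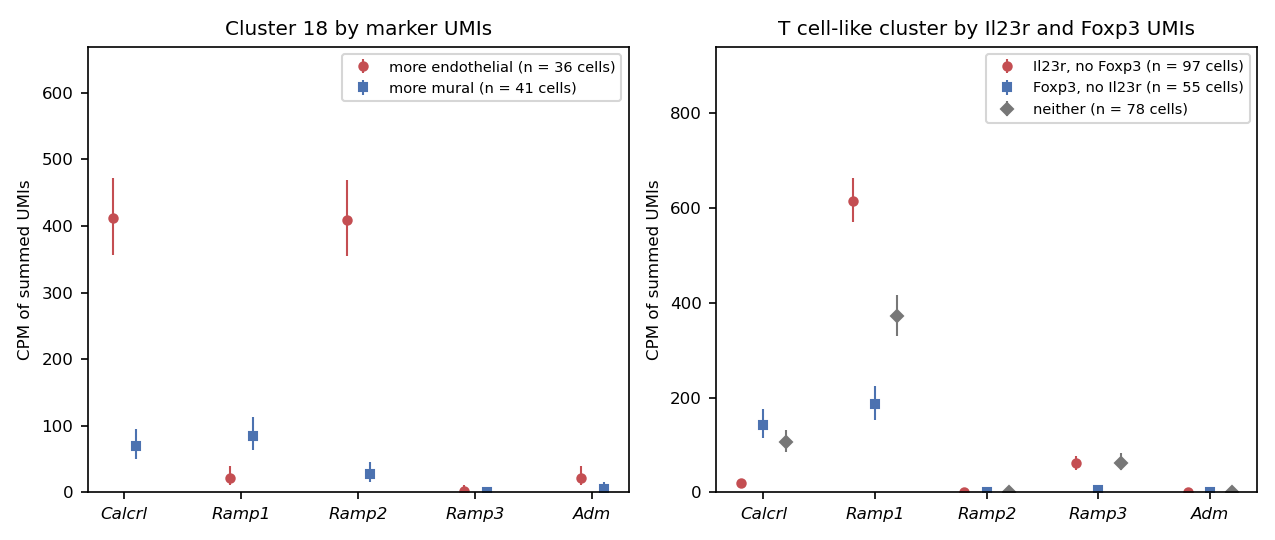
Level in CPM with 95% counting intervals of the 5 genes in the endothelial and mural cells of cluster 18 and in the T-cell-like cells divided by Il23r and Foxp3. Calcrl and Ramp2 stand at 411 and 409 CPM in endothelial cells, and Ramp1 at 614 CPM in T-cell-like cells with Il23r.

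Ramp3, the other adrenomedullin receptor partner, lies on the plus strand of chr11:6608511-6627475 (ENSMUSG00000041046). It gave 517 UMIs, most of them in 3 clusters. The T-cell-like cluster 11 was highest, at 46.5 CPM (38.7 to 55.5), with a UMI in 21.3% of cells. Cluster 6 followed at 16.5 CPM and the proliferating cluster 15 at 11.4 CPM, which over both libraries differed beyond counting error. Every other cluster was at 2.89 CPM or lower, and cluster 1 held 0 Ramp3 UMIs. Thinned shares were 10.3% in cluster 11 and 4.28% in cluster 6, against 0 of 531 B-cell-like cells.

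In T-cell-like cells Ramp3 was level between libraries, at 46.0 CPM with β-glucan and 46.9 CPM with PBS. In cluster 6 it was lower with β-glucan. There 30 of 287 β-glucan cells (10.5%) and 80 of 437 PBS cells (18.3%) held a Ramp3 UMI. The levels were 8.14 CPM from 52 UMIs and 21.5 CPM from 229 UMIs, a log2 ratio of -1.40 (-1.86 to -0.96), where 3.16% of genes in that cluster passed the fold downwards. The difference did not hold across cluster 6. At resolution 1, 436 of its cells formed a cluster with 10.8 and 32.8 CPM, a log2 ratio of -1.60 (-2.14 to -1.10). Another 236 fell in a cluster with 3.49 and 3.64 CPM, from 8 and 13 UMIs. The log2 ratio there was -0.06 (-1.54 to 1.32). In cluster 15 there were 0 Ramp3 UMIs in 49 β-glucan cells and 43 in 12 of 66 PBS cells. With the β-glucan count set to a floor of 3, the level was 8.54-fold lower than with PBS, which is not a lower limit. The counting interval of the 0 β-glucan UMIs reached 2.61 CPM, and PBS stood at 18.1 CPM (13.1 to 24.4). The β-glucan cells of cluster 15 were fewer than the minimum per library used for the cluster counts above. No share of all genes past the fold was taken for this cluster, and the PBS cell with the most Ramp3 UMIs held 15 of the 43. Over the compartment there were 71 and 255 UMIs, or 1.09 and 4.21 CPM, a log2 ratio of -1.95, with both levels low.

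Several genes, chosen after their values were seen, differed between libraries beside Ramp3 in cluster 6. Alox15, a lipoxygenase of alternatively activated myeloid cells, had 0 UMIs with β-glucan and 53.1 CPM with PBS. Flt1, a vascular endothelial growth factor receptor, had 22.8 and 185 CPM, and Arg1, the arginine-degrading arginase, 5.48 and 119 CPM. The chemokine gene Ccl17 had 375 and 730 CPM, while the lectin gene Cd209a went the other way, at 248 and 188 CPM. Retnla differed less in cluster 6, at 1743 and 2387 CPM. In cluster 15 the PBS cells had Alox15 at 105 CPM and Arg1 at 207 CPM, both without a UMI in the β-glucan cells. The PBS cells of the Arg1 cluster (cluster 17) had Arg1 at 3114 CPM, Flt1 at 616 CPM and Alox15 at 13.6 CPM. Ramp3 in those cells was at 0.484 CPM, from 1 UMI. In cluster 6 the share of cells with a Flt1 UMI was 14.6% with β-glucan and 29.7% with PBS. For Arg1 it was 4.18% and 16.0%, and for Cd209a 61.3% and 52.2%. Cells with Flt1 or Arg1 also held fewer UMIs each with β-glucan. Flt1 had 146 UMIs in 42 β-glucan cells and 1977 in 130 PBS cells, and Arg1 had 35 in 12 and 1268 in 70. The median depth of cluster 6 was 19083 UMIs with β-glucan and 23211 with PBS. The part of these cells in the Ramp3 ratio was not tested.

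T-cell-like cells held the highest Ramp1 and Ramp3 levels, although the sort was for CD11b. They numbered 239, and in their cluster 6 T cell markers summed to 1587 and 1950 CPM with β-glucan and PBS, next to 2364 and 1588 CPM for the macrophage markers. Ramp1 in cluster 11 was 393 against 446 CPM in β-glucan and PBS cells, for a log2 ratio of -0.18 (-0.36 to -0.01). These cells were divided by Il23r, the interleukin-23 receptor gene, and Foxp3, the regulatory T cell transcription factor gene, after their values were seen. In 97 cells with an Il23r and no Foxp3 UMI, Ramp1 reached 614 CPM, with a UMI in 95.9% of cells, Ramp3 61.2 CPM and Calcrl 18.9 CPM. In 55 cells with a Foxp3 and no Il23r UMI, Ramp1 was 186 CPM, Ramp3 4.93 CPM and Calcrl 143 CPM. The cells with neither, 78 in number, had 371, 62.7 and 106 CPM of Ramp1, Ramp3 and Calcrl. By library Ramp1 went both ways among them, at 669 CPM with β-glucan and 565 CPM with PBS in the Il23r cells, 160 and 217 CPM in the Foxp3 cells, and 192 and 439 CPM in the cells with neither, which numbered 26 and 52. Calcrl was lowest where Ramp1 was highest among these cells, and in the Il23r cells it stood at 28.4 CPM with β-glucan and 10.3 CPM with PBS, from 15 and 6 UMIs.

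Adm, which encodes the adrenomedullin precursor, lies on the plus strand of chr7:110226858-110229027 (ENSMUSG00000030790) and gave 105 UMIs in all. The stromal-like cluster 13 held 41 of them, at 11.1 CPM (7.95 to 15), in 24 of 179 cells. Cluster 18 reached 13.6 CPM from 15 UMIs, but 11 of these were in 1 endothelial cell. The levels of clusters 13 and 18 did not differ beyond counting error. Stromal-like Adm was 12.7 against 9.11 CPM in the β-glucan and PBS cells, for a log2 ratio of 0.47 (-0.50 to 1.50). In the compartment Adm had 12 and 25 UMIs, 11 of the PBS ones in cluster 6, and a log2 ratio of -1.17 (-2.30 to -0.12). Of those 11, 6 were in 1 cell. Another 8 PBS UMIs were in cluster 17, 6 of them in 1 cell, and the interval does not cover such clumping. Adm was too rare to compare between libraries in any myeloid cluster.

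Genes with the most similar profile over the 20 clusters were ranked by Pearson's r of log2 levels among 10938 genes. The points share 2 libraries, so these values are descriptions. For Calcrl the highest were Pcnx (0.83), Fgf1 (0.82), Map4k3 (0.80), Cep85l (0.78) and Garre1 (0.76). For Ramp1 they were Chst11 (0.78), Padi2 (0.77), Id2 (0.77), St3gal4 (0.75) and Dock5 (0.75). Ramp2 was nearest to Kif21a (0.98), Mustn1, Pla2r1, Arhgef17 and Lims2 (0.97 each). Ramp3 was nearest to Mmp25 (0.83), Adgrg5 (0.82), Traf1 (0.82), Aqp3 (0.81) and Tnfrsf18 (0.81). Adm was nearest to Irs1 (0.91), Adamts4, Bmp6 and Podxl2 (0.90 each) and Fxyd1 (0.89). Among the 5 genes, Ramp2 and Adm were most alike, at 0.85, and Ramp1 and Ramp3 reached 0.59. The Adm profile rests on 105 UMIs, and 11 of its 15 UMIs in cluster 18 were in 1 cell. Calcrl was close to neither Ramp1, at 0.04, nor Ramp2, at 0.40.

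The wider pathway was read in the compartment from 6 gene lists, of which a median over all 9811 measured genes of 0.03 is the background. Of 7 related ligand and receptor genes 2 were measured at 5 CPM. Crcp, which encodes a CGRP receptor component protein, had a log2 ratio of 0.00, and Ackr3, an atypical chemokine receptor that binds adrenomedullin, was at 9.64 CPM with β-glucan and 19.3 CPM with PBS, a log2 ratio of -1.0. In the compartment the CGRP genes Calca and Calcb had 5 and 1 UMIs, Calcr had 1, and Adm2 and Iapp had 0. CGRP transcripts were thus at or near 0 in the compartment. Over all clusters Calca was highest in the T-cell-like cluster 11, at 8.32 CPM. Calcr was highest in cluster 18, at 25.4 CPM. Of 9 genes of peptide processing and breakdown 6 were measured, with a median log2 ratio of 0.20, none of them past the fold. The highest were Ide, the insulin-degrading enzyme gene, at 0.46 and Pam, which amidates peptide hormones, at 0.34.

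Downstream genes showed no common direction at the level of the cyclic AMP machinery. Of 23 cyclic AMP signalling genes 18 were measured, 11 higher and 7 lower with β-glucan, none past the fold, with a median log2 ratio of 0.02. The largest in size were the adenylyl cyclase gene Adcy9 at 0.46 and Prkar2b, a regulatory subunit gene of protein kinase A, at 0.31. Of 12 early cyclic AMP and CREB target genes 10 were measured, 9 of them lower with β-glucan, with a median of -0.49, where 42.3% of all measured genes were lower and 1.31% past the fold downwards. The 4 past the fold were Thbs1 at -0.98, the clock gene Per1 at -0.93, the nuclear receptor gene Nr4a2 at -0.79 and the kinase gene Sik1 at -0.58. Of 19 hypoxia-responsive genes 14 were measured and 12 were lower, with a median of -0.25, against the same 42.3% and 1.31% over all genes. The 4 past the fold were Ankrd37 at -1.28, the glucose transporter gene Slc2a1 at -0.67, the glycolysis gene Pgk1 at -0.64 and Bnip3 at -0.57. Each of these 4 was highest in the Arg1 cluster (cluster 17), which held 78 PBS and 16 β-glucan cells. The part of cell numbers in their compartment ratios was not tested. Other Gs-coupled receptor genes were level, with 6 of 9 measured, 3 on either side of 0 and a median of 0.00, and the largest in size were the adenosine receptor gene Adora2b at -0.23 and the prostaglandin E2 receptor gene Ptger2 at 0.15.

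**Figure D5:**
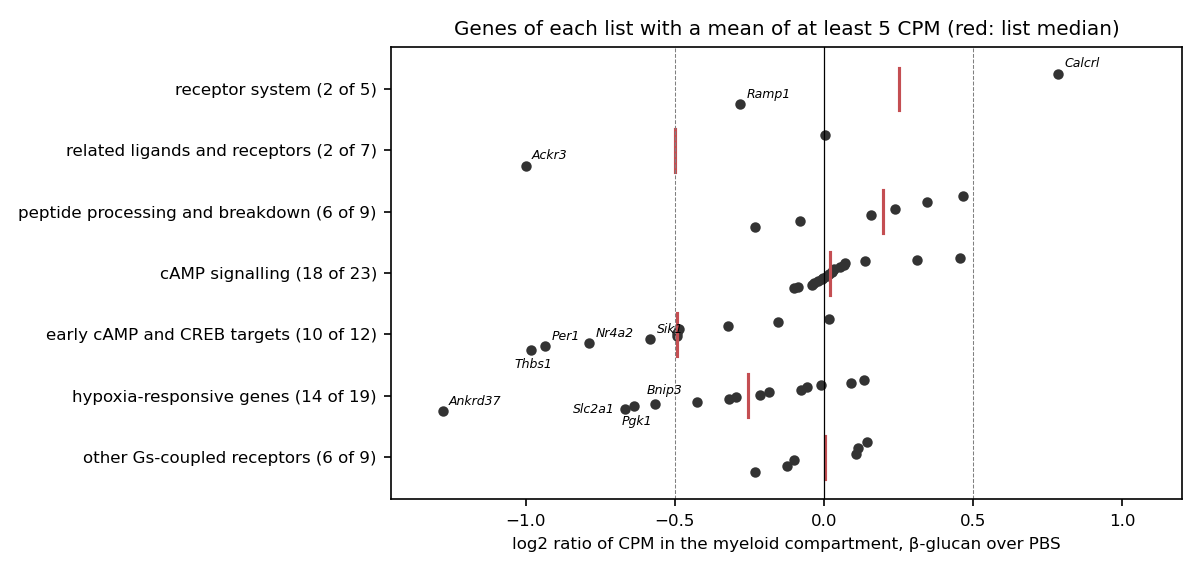
Log2 ratio of β-glucan over PBS in the myeloid compartment for each measured gene of the 6 lists and for the measured genes of the receptor system, as points, with a red line at each list's median and dashed lines at 0.5 on either side of 0. Calcrl at 0.79 is to the right of every list gene, and most early cyclic AMP targets are on the left.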

How the data were processed

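The 5 genes and the gene lists were chosen with earlier results of these data known. The authors made droplet 3' libraries and deposited raw UMI counts per gene and barcode from Cell Ranger 7.0.0 with GRCm39 and Ensembl 104; the labels also name mm10. Whether intronic reads were counted is not given in the sources used here. The study's filter (barcodes under 500 genes or over 10% mitochondrial UMIs removed) left 10249 of 12956 barcodes. Scrublet called 0 and 2 doublets, so it had not worked and no cell was removed. Clusters came from Seurat 5.3.0 on sctransform 0.4.2 residuals (3000 variable genes without the 36 listed ones, 30 components, 20 neighbours, resolution 0.7, no integration), and classes were named from fixed markers, so names may differ from the study's. Counts were summed per cluster and library and divided by the summed UMIs. Intervals are exact (Poisson for CPM, conditional binomial for ratios, Clopper-Pearson for shares) and cover counting error only. Shares were taken after thinning to 3000 UMIs, or 8000 as an alternative, leaving out shallower cells. With 1 library per group there was no test. Named genes were the 5 genes, the 5 most similar profiles of each, and the list genes past the fold or, where fewer than 2 were, the 2 of largest size. The fold was a log2 ratio of 0.5 at a mean of at least 5 CPM. RefSeq promoters were found for 4 of the 5 genes. The ratio interval and the fold were checked on simulated Poisson sums with known ratios. That check did not cover clustering, naming, thinning or spread between cells.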

Additional observations from a re-analysis of the deposited data

Results flagged for a closer look

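The Ramp1 ratio of β-glucan over PBS had intervals on both sides of 0 in different clusters. It was 1.10 on the log2 scale in the cytotoxic-lymphocyte-like cluster 14 but -0.17 in cluster 0, -0.78 in cluster 8, -1.28 in cluster 10, -0.18 in the T-cell-like cluster 11, -0.67 in the mast-cell-like cluster 12 and -0.63 in the stromal-like cluster 13. The difference between these clusters was not tested, since each rests on 1 library per group. Over all genes, 8.91% to 19.2% were past the fold downwards in clusters 8, 10, 12 and 13, and 23.4% upwards in cluster 14.

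Members also gave signal in the 2707 barcodes that the filter on cells left out. Calcrl stood at 97.7 CPM, Ramp1 at 21.1 CPM, Ramp2 at 3.15 CPM and Ramp3 at 2.36 CPM there, each above the limit that a count of 0 allows.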

How the results depend on the processing

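The compartment log2 ratio of Calcrl, 0.79, ran from 0.60 to 0.81 over 16 alternatives. It was 0.69 after thinning, 0.69 without clusters 6 and 17 and 0.60 in cells matched on the share of long genes. Ramp1, at -0.28, was -0.16 with equal weight per cluster, -0.15 after thinning, -0.084 without clusters 6 and 17 and 0.088 in matched cells, a reversal under an alternative that also equalizes cluster sizes. Ramp3, at -1.95, was -1.55 over all cells, -3.33 after thinning, -1.29 in matched cells and -0.69 without clusters 6 and 17. Adm, at -1.17 from 37 UMIs, was -0.064 over all cells, and it turned to 0.17 with equal weight per cell, 0.73 in matched cells and 0.58 without clusters 6 and 17. Ramp2 stayed between -0.32 and 0.14. The alternative without clusters 6 and 17 was added after seeing the data. Equal weight per cluster gave no value for Ramp3 and Adm. Of the levels, Calcrl in cluster 18, at 224 CPM, was 112 without the filter on cells and 94.2 at resolution 0.5, where its cells joined the stromal-like ones, 404 with the stricter filter, 72.2 at resolution 1, where the endothelial cells had split off, 258 without cells of high doublet score and 259 without mitochondrial and ribosomal genes, and Ramp2 there, at 202 CPM, was 117, 124, 419, 34.5, 237 and 233 in that order. Ramp1 in T-cell-like cells, at 422 CPM, was 506 without cells of high doublet score and 499 without mitochondrial and ribosomal genes, Ramp3 there, at 46.5 CPM, was 59.9 without cells of high doublet score, and stromal-like Adm, at 11.1 CPM, was 6.66 with the stricter filter. The causes were not tested. No paired analysis was possible because each group had 1 library.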
